A study of Rattus norvegicus with 12 samples.

Results

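The tumor necrosis factor (TNF) superfamily genes with numbered symbols were followed in the brains of rats with a stroke and of rats after sham surgery. Members were all rows of the deposited count table whose symbol is Tnfsf (ligands) or Tnfrsf (receptors) followed by a number, which gave 30 of 37209 symbols: 11 ligands and 19 receptors. At least 10 counts in 3 or more libraries were reached by 27 members, 10 ligands and 17 receptors, and the same 27 passed the expression filter and were tested. The remaining 3 were Tnfrsf13c with 62 counts over all libraries, Tnfrsf17 with 31 and Tnfsf11 with 0. Just inside the limit were Tnfrsf13b, with 94 counts, and Tnfsf18, with 117, each reaching 10 counts in 3 libraries. Of the 27, 5 reached 10 counts in stroke libraries only (Tnfrsf14, Tnfrsf18, Tnfrsf22, Tnfsf14 and Tnfsf18), so that they were tested because they were high there, and counts over the members are descriptions.

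The animals were Sprague Dawley rats labelled postnatal day 21, and the tissue is labelled brain in all 12 libraries. The 4 groups of 3 bulk RNA-seq libraries were middle cerebral artery occlusion (MCAO), which blocks the artery supplying much of the forebrain, its shams (code LN), pontine infarction, a stroke of the brainstem pons, and its shams (code PN). The labels mark all control libraries as sham without naming the stroke they belong to, and the pairing of LN with MCAO and of PN with pontine infarction rests on the first letter of the codes. For the brain region, the time after stroke and the method of occlusion, the sources used here give nothing. The labels name 3 rats for each stroke and say nothing of how the sham libraries map to animals, so p-values measure the spread between these libraries.

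Ligands of the TNF superfamily are mostly trimeric membrane proteins of immune and other cells, some of them released by proteases. Their receptors fall into those with a cytoplasmic death domain, which can start caspase-driven cell death, those that bind TRAF adaptors and feed the NF-kB transcription factors, and decoys that bind a ligand without passing on a signal. In injured brain they are known from microglia, infiltrating blood leukocytes, astrocytes and vessels, where they take part in inflammation, cell survival and barrier changes.

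Marker lists place the libraries as follows, in summed CPM (counts scaled to library size). Telencephalon genes summed to 1766 to 3162 CPM in the LN shams and 77.04 to 88.9 in the PN shams, and hindbrain genes to 0 to 0.132 and 32.5 to 44.7. Neuron genes summed to 3479 to 5902 CPM after MCAO (LN shams 5197 to 7098) and 2676 to 3448 after pontine infarction (PN shams 4441 to 4888). None of these 8 passed after either stroke. Oligodendrocyte genes summed to 7234 to 11322 CPM after MCAO (LN shams 14432 to 20817) and 26321 to 28409 after pontine infarction (PN shams 40826 to 50907). Of the 7 tested, 4 passed as lower after MCAO and 1 after pontine infarction. The list of 11 neutrophil and monocyte genes, which includes Lcn2, also made by reactive astrocytes, summed to 3168, 109 and 801 CPM in MCAO replicate 1, replicate 2 and the library without a number, against 5.77 to 7.42 in the LN shams. Lcn2 had the most counts of the list, 58536 in the MCAO group and 24040 in the pontine infarction group. The next highest were Csf3r with 7676 after MCAO and Itgal with 4370 after pontine infarction. The same list summed to 1176, 138 and 203 CPM in pontine infarction replicates 1 to 3, against 6.97 to 10.9 in the PN shams. All 11 passed the test after MCAO and 6 of 11 after pontine infarction, all higher. The 8 activated phagocyte genes rose after both strokes, to sums of 1761, 424 and 1310 CPM after MCAO (LN shams 10.1 to 14.0) and 1683, 809 and 4013 CPM after pontine infarction (PN shams 121 to 151). Replicate 2 of each stroke was therefore the lowest of its group in both lists. Of the 8 activated phagocyte genes, 1 passed between the sham groups, lower in LN. Their log2 differences, LN minus PN, ran from -7.39 to 0.058 with a median of -1.14. In bulk tissue, fewer cells of a type and less RNA per cell cannot be told apart.

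Promoter sequence is shown for 4 receptors that passed the test after MCAO, the TNF receptors Tnfrsf1a and Tnfrsf1b, the TWEAK receptor Tnfrsf12a and Tnfrsf8, chosen after their values were seen to place the motif matches described next. Each is the 250 bases before the RefSeq start on build GRCr8, 5′ to 3′ on the gene's strand: chr4:159836869-159837118 (+), chr5:162387412-162387661 (−), chr10:13213649-13213898 (−) and chr5:162451621-162451870 (−). Capitals mark matches to the motifs searched.
Tnfrsf1a: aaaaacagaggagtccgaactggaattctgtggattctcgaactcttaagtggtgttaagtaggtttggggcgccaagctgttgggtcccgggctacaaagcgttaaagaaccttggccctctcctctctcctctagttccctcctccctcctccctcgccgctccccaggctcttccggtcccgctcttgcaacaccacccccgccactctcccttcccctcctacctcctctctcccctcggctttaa
Tnfrsf1b: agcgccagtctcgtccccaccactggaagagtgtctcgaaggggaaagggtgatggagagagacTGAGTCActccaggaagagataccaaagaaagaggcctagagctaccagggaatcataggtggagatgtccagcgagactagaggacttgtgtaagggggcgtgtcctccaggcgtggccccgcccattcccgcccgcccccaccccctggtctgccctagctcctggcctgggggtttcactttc
Tnfrsf12a: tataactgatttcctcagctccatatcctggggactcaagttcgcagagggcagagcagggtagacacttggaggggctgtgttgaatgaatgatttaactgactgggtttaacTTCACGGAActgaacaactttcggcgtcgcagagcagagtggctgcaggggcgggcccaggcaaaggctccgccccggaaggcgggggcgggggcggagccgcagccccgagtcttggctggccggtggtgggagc
Tnfrsf8: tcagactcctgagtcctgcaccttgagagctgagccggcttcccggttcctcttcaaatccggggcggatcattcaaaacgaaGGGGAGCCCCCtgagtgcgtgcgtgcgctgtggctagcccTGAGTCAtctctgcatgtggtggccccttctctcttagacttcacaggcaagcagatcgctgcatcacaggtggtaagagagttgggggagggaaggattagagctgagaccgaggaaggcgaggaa
The motifs were TGANTCA (the AP-1 core), TTCNNNGAA (the STAT core) and the NF-kB motif, on both strands of windows from 250 bases before to 50 after the start. Tnfrsf1b holds TGAGTCA 186 bases before its start, Tnfrsf12a holds TTCACGGAA 136 bases before, and Tnfrsf8 holds TGAGTCA 127 bases before and a pair of overlapping NF-kB matches 167 and 166 bases before. Tnfrsf1a holds none of the 3. RefSeq windows were matched by symbol for 22 of the 30 members. TGANTCA was in 2 of the 22 and in 7.33% of all 33469 windows, TTCNNNGAA in 1 and in 8.87%, and the NF-kB motif in 2 (Tnfrsf8 and Tnfsf14) and in 7.51%. These matches are descriptions of the sequence.

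After MCAO, 10 of the 27 tested members rose and none fell (edgeR quasi-likelihood test, Benjamini-Hochberg adjusted p under 0.05). The background was 18.6% of all 17008 genes called, 12.5% higher and 6.07% lower, against 37.0% of the members called. The 10 were 9 of the 17 receptors, Tnfrsf1a, Tnfrsf1b, Tnfrsf8, Tnfrsf10b, Tnfrsf12a, Tnfrsf14, Tnfrsf18, Tnfrsf22 and Tnfrsf26, and 1 of the 10 ligands, Tnfsf9. The median log2 difference was 1.20 over the members and -0.0018 over all genes tested. Tnfrsf14, Tnfrsf18 and Tnfrsf22 reached 10 counts in stroke libraries only. The members' share and median thus include members tested because they were high after stroke, and are descriptions. Whichever library was left out, 7 of the 10 still passed: Tnfrsf1a, Tnfrsf1b, Tnfrsf10b, Tnfrsf12a, Tnfrsf22, Tnfrsf26 and Tnfsf9. Over all genes, 1136 to 6170 were called in these fits, against 3163 with all libraries.

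After pontine infarction, 5 of the 27 rose and none fell, 18.5% of the members against 4.08% of all genes called (3.21% higher and 0.870% lower). These were the receptors Tnfrsf1a, Tnfrsf1b and Tnfrsf22 and the ligands Tnfsf13 and Tnfsf13b, 3 of 17 receptors and 2 of 10 ligands. The median log2 difference was 1.30 over the members and -0.083 over all genes. The 3 receptors passed after both strokes. Of these, Tnfrsf22 reached 10 counts in stroke libraries only, and so was tested because it was high there. None of the 5 passed in every leave-one-out fit: without pontine infarction replicate 3, or without PN sham replicate 1, 2 or 3, no member passed, without pontine infarction replicate 1 only Tnfsf13b did, and without replicate 2 there were 8. Over all genes, the 694 calls became 310 without pontine infarction replicate 3 and 182, 52 and 6 without PN sham replicates 1, 2 and 3. They became 431 without pontine infarction replicate 1 and 965 without replicate 2. With limma voom only Tnfsf13b passed. In a fit of the pontine infarction and PN libraries alone, Tnfrsf22 (adjusted p = 0.0632) and Tnfsf13 (0.0558) did not.

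**Figure D1:**
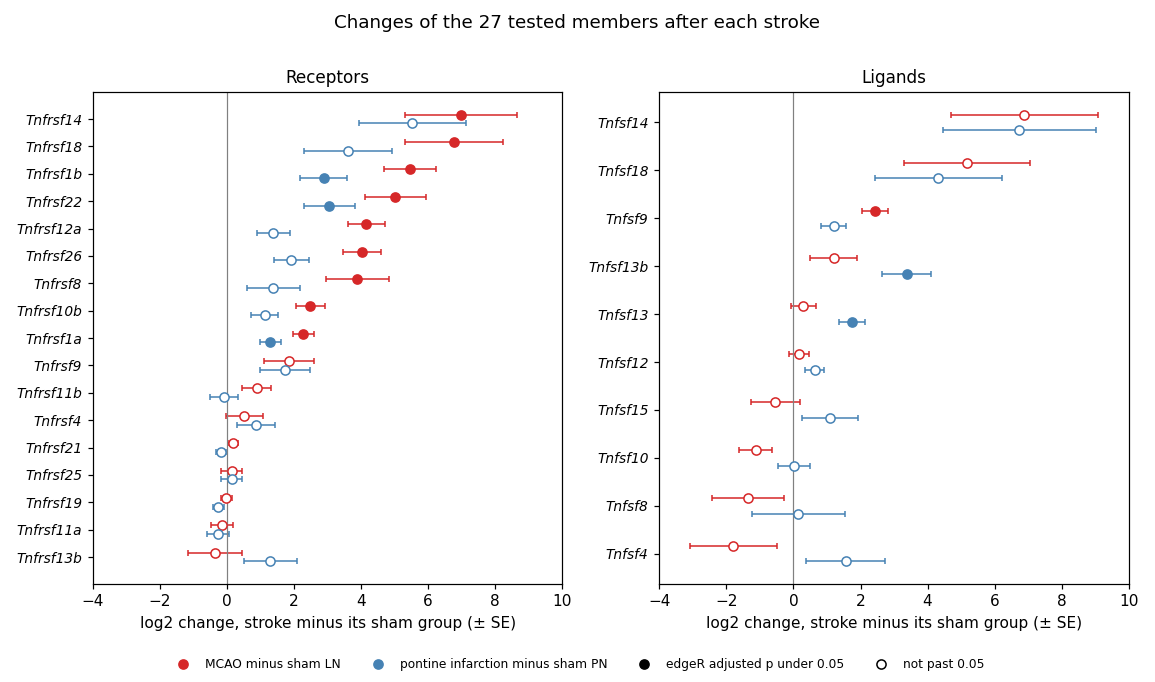
The log2 difference of each tested member is plotted for MCAO against the LN shams and for pontine infarction against the PN shams, with the standard error as bars; filled points passed the adjusted p threshold of 0.05. The MCAO points that passed all lie above 0, from Tnfrsf1a at 2.27 upward; values of members with a sham group at 0 to 2 counts, such as Tnfrsf18, are fitted values and no bounds.

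Tnfrsf1a encodes the death-domain receptor of TNF found on most cells. It had 129, 49.0 and 91.5 CPM in MCAO replicate 1, replicate 2 and the unnumbered library, against 21.1, 16.5 and 18.1 CPM in LN shams 1 to 3. In pontine infarction replicates 1 to 3 it had 69.9, 41.5 and 71.8 CPM, against 23.5, 25.2 and 25.8 CPM in PN shams 1 to 3. Every stroke library lay above every sham library. The fitted difference was 4.84-fold after MCAO (log2 2.27 ± 0.31 SE, edgeR adjusted p = 0.00214) and 2.46-fold after pontine infarction (log2 1.30 ± 0.31, adjusted p = 0.0387).

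Tnfrsf1b encodes the second TNF receptor, which has no death domain and is expressed mainly on leukocytes, microglia and endothelium. Its level was 333, 43.7 and 135 CPM after MCAO and 4.45, 4.22 and 3.02 CPM in the LN shams. After pontine infarction it was 53.3, 9.57 and 27.6 CPM, against 4.47, 4.23 and 3.49 CPM in the PN shams. The groups did not overlap at either site, and replicate 2 was the lowest stroke library at both. Tnfrsf1b was 43.6-fold higher after MCAO (log2 5.45 ± 0.77, edgeR adjusted p = 0.00238) and 7.39-fold higher after pontine infarction (log2 2.89 ± 0.70, adjusted p = 0.0434). Replicate 1 was the highest library at both sites: without it the log2 difference was 4.43 after MCAO, still past the threshold, and 2.18 after pontine infarction, no longer past it. At both sites the order of the 3 stroke libraries was also that of the neutrophil and monocyte sum, in which Lcn2 had the most counts. The part of neutrophils and monocytes in the result was not tested. Tnf itself, the ligand of both receptors, was nearly undetected: its counts summed to 10 in MCAO, 8 in pontine infarction, 2 in the LN shams and 0 in the PN shams, too few for a test.

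Tnfrsf10b encodes the death receptor of TRAIL. It had 3.46, 1.73 and 2.81 CPM after MCAO and 0.263, 0.556 and 0.612 CPM in the LN shams, with no overlap. It rose 5.61-fold (log2 2.49 ± 0.43, edgeR adjusted p = 0.00443). In the pontine libraries it had 2.93, 1.71 and 2.73 CPM against 0.946, 1.28 and 1.11 CPM, again without overlap, but the difference of 2.19-fold did not pass (adjusted p = 0.136). RefSeq places the gene over Rhobtb2, and without the strand of counting their reads cannot be told apart where they overlap. Tnfsf10, which encodes TRAIL, averaged 0.955 ± 0.408 CPM (SD, n = 3) after MCAO and 2.10 ± 0.3602 CPM in the LN shams. Its MCAO libraries all lay below the LN shams, yet the difference did not pass (log2 -1.13 ± 0.50, edgeR adjusted p = 0.128).

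Tnfrsf22 and Tnfrsf26 are rodent receptor genes that lie next to each other, with no protein-coding gene between them in RefSeq, and are related copies, so the split of reads between them is uncertain. The mouse Tnfrsf22 protein is known to bind TRAIL without a death domain. Tnfrsf26 had 7.51, 2.27 and 4.79 CPM after MCAO against 0.448, 0.148 and 0.268 CPM in the LN shams, and 3.77, 1.73 and 2.43 CPM after pontine infarction against 0.903, 0.567 and 0.611 CPM in the PN shams. Neither pair of groups overlapped. Tnfrsf26 rose 16.3-fold after MCAO (log2 4.02 ± 0.56, edgeR adjusted p = 0.00228), and its 3.79-fold difference after pontine infarction did not pass (adjusted p = 0.0595), though it did without pontine infarction replicate 2 (0.0468).

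Tnfrsf22 was much sparser, at 1.30, 0.494 and 0.774 CPM after MCAO and 0.0263, 0.0371 and 0 CPM in the LN shams. Summed over the groups this was 53 counts against 2, a ratio of 39.1 with a 95% counting interval of 10.3 to 331, and the difference passed (edgeR adjusted p = 0.00519). After pontine infarction it had 1.35, 0.515 and 0.486 CPM against 0.0430, 0.0378 and 0.180 CPM in the PN shams, 8.30-fold higher (log2 3.05 ± 0.76, adjusted p = 0.0482). The pontine log2 difference was 2.43 without pontine infarction replicate 1 and 4.11 without PN sham 3, and passed in neither fit. Intervals of this kind cover counting error only.

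Tnfrsf12a encodes Fn14, the receptor of TWEAK, which binds TRAF adaptors and is known to be induced in injured tissue. It had 52.2, 11.6 and 74.2 CPM after MCAO and 2.79, 2.93 and 1.99 CPM in the LN shams. The unnumbered MCAO library was the highest and replicate 2 the lowest, and all 3 lay above the shams. It rose 17.9-fold (log2 4.16 ± 0.56, edgeR adjusted p = 0.00191), the smallest adjusted p among the members after MCAO. After pontine infarction it had 18.0, 14.5 and 22.2 CPM against 6.66, 5.14 and 9.13 CPM. Those groups did not overlap either, but the 2.61-fold difference did not pass (adjusted p = 0.139). Fitted on the pontine and PN libraries alone it did, at an adjusted p of 0.0282.

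Tnfsf12, which encodes TWEAK, did not pass at either site. It averaged 16.0 ± 1.91 CPM (SD, n = 3) after MCAO and 14.3 ± 1.504 CPM in the LN shams, and 30.2 ± 15.9 CPM after pontine infarction against 19.5 ± 3.41 CPM in the PN shams. The edgeR adjusted p was 0.737 and 0.243.

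**Figure D2:**
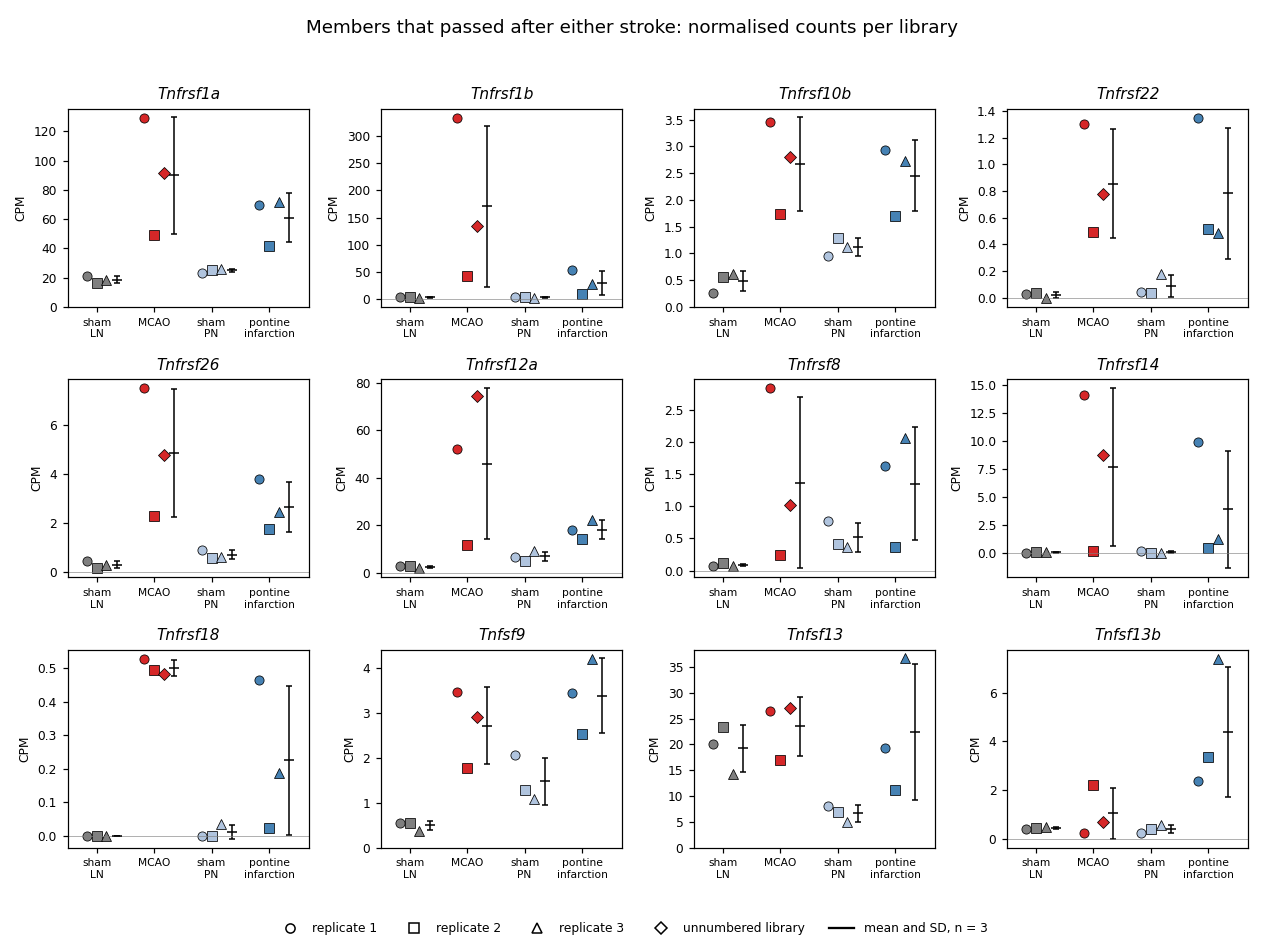
CPM of the members that passed the test after a stroke is plotted for each library on a linear axis of its own, with the 4 groups side by side and the group mean and SD (n = 3) as black bars. Tnfrsf1a and Tnfrsf1b lie above their shams in every stroke library, and MCAO replicate 2 is the lowest MCAO library for 9 of the 10 members that rose there.

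Tnfsf9 encodes the ligand of the costimulatory receptor CD137, itself the product of Tnfrsf9. It was the only ligand that passed after MCAO, with 3.46, 1.78 and 2.90 CPM against 0.553, 0.556 and 0.383 CPM in the LN shams. The difference was 5.40-fold (log2 2.43 ± 0.40, edgeR adjusted p = 0.00363). After pontine infarction it had 3.44, 2.53 and 4.19 CPM against 2.06, 1.28 and 1.08 CPM, without overlap, at 2.29-fold and an adjusted p of 0.095. Tnfrsf9 averaged 8.97 ± 6.18 CPM (SD, n = 3) after MCAO, 2.47 ± 1.44 CPM in the LN shams, 3.95 ± 3.33 CPM after pontine infarction and 1.18 ± 0.333 CPM in the PN shams, and passed at neither site (adjusted p = 0.0978 and 0.213). Without MCAO replicate 2 it passed, at an adjusted p of 0.0175.

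Tnfrsf14 encodes HVEM, the receptor of LIGHT, on T cells and myeloid cells. It had 14.1, 0.148 and 8.71 CPM after MCAO and 0.0263, 0.0741 and 0.0765 CPM in the LN shams. MCAO replicate 2 stood just above the shams while the other libraries of the group were far above them. The difference passed (log2 6.98 ± 1.66, edgeR adjusted p = 0.0163), but not once any 1 of the LN shams was left out, with adjusted p up to 0.0748, and not with limma voom (adjusted p = 0.197). Without MCAO replicate 1 the log2 difference was 6.11, still past the threshold. After pontine infarction it had 9.91, 0.468 and 1.27 CPM against 0.172, 0.0378 and 0.0359 CPM, without overlap and with an edgeR adjusted p of 0.0751, or 0.0426 without pontine infarction replicate 2.

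Tnfsf14, which encodes LIGHT, gave 34 counts in the MCAO group, 36 in the pontine infarction group and 0 in all 6 sham libraries. Against a floor of 3 counts over the sham group this was at least 16.7-fold higher after MCAO and at least 10.2-fold higher after pontine infarction. It averaged 0.548 ± 0.366 CPM (SD, n = 3) after MCAO and 0.516 ± 0.512 CPM after pontine infarction, and passed in neither comparison (edgeR adjusted p = 0.0661 and 0.146), and pontine infarction replicate 2 also had 0 counts. The MCAO difference passed without the low-count filter (adjusted p = 0.0457) and without MCAO replicate 2 (0.0404), and the pontine difference without pontine infarction replicate 2 (0.0379).

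Tnfrsf18 encodes GITR, a receptor known from regulatory and activated T cells. Each MCAO library held 0.529, 0.494 or 0.484 CPM and the LN shams held no count, 31 counts against 0. The bound is at least 15.25-fold higher, and the difference passed (edgeR adjusted p = 0.0147), though not without LN sham 1 (0.0553). In the pontine comparison, 16 counts against 1 gave a ratio of 13.6 (95% counting interval 2.12 to 572) and an adjusted p of 0.154. Its ligand gene Tnfsf18 gave 58 counts in the MCAO group against 2, and 57 of the 58 were in the unnumbered library, so the group rests on 1 library. Tnfsf18 averaged 0.935 ± 1.58 CPM (SD, n = 3) after MCAO, 0.0176 ± 0.0304 in the LN shams, 0.604 ± 0.669 after pontine infarction and 0.0269 ± 0.0235 in the PN shams. The MCAO ratio was 42.8 (11.3 to 362; adjusted p = 0.0739, or 0.0213 without MCAO replicate 2), and after pontine infarction 55 counts against 2 gave 23.4 (6.19 to 198; adjusted p = 0.214).

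Tnfrsf8 encodes CD30, a receptor of activated lymphocytes. It had 2.84, 0.247 and 1.02 CPM after MCAO and 0.0790, 0.111 and 0.0765 CPM in the LN shams, 14.8-fold higher (log2 3.88 ± 0.94, edgeR adjusted p = 0.0173). It no longer passed once MCAO replicate 1 or any 1 of the LN shams was left out, with adjusted p up to 0.0829, or with limma voom (0.0894). Without MCAO replicate 1 its log2 difference was 2.70. After pontine infarction it had 1.63, 0.374 and 2.06 CPM against 0.774, 0.416 and 0.359 CPM, with overlap and an adjusted p of 0.341. RefSeq places LOC103692519 over both Tnfrsf8 and its neighbour Tnfrsf1b.

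Tnfrsf14, Tnfrsf18 and Tnfrsf8 are background markers of lymphocytes as well as of other leukocytes. The 12 T, B and NK lymphocyte genes summed to 11.8 to 13.1 CPM after MCAO and 18.4 to 25.4 CPM in the LN shams, with Cd79a at 0 in every library and Cd3g, Cd5 and Ms4a1 at 0 in the LN shams. Of the 4 tested after MCAO, Cd2 passed as higher (157 counts against 3 in the LN shams, edgeR adjusted p = 0.0109) and Cd4, in rats also a gene of microglia and macrophages, as lower (log2 -1.31 ± 0.32, adjusted p = 0.0183). Cd3e (adjusted p = 0.675) and Nkg7 (0.146) did not pass. After pontine infarction none of the 4 passed. The neutrophil and monocyte sum, in which Lcn2 had the most counts, was lowest of the MCAO group in replicate 2, at 109 CPM. The Tnfrsf14 and Tnfrsf8 levels were lowest in that library as well. Tnfrsf18 did not follow that order, with nearly level values in the 3 MCAO libraries and the lowest in the unnumbered one. The part of these cells in the results was not tested.

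Tnfrsf4, which encodes the costimulatory receptor OX40, and its ligand gene Tnfsf4 passed at neither site. Tnfrsf4 averaged 0.502 ± 0.0266 CPM (SD, n = 3) after MCAO, 0.352 ± 0.127 in the LN shams, 0.483 ± 0.199 after pontine infarction and 0.260 ± 0.154 in the PN shams. Tnfsf4 averaged 0.132 ± 0.228, 0.462 ± 0.208, 0.615 ± 0.569 and 0.212 ± 0.119 CPM in the same order of groups. Without MCAO replicate 2, the only MCAO library with Tnfsf4 counts, Tnfsf4 passed as lower after MCAO (edgeR adjusted p = 0.0428).

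Tnfsf13b encodes BAFF, a survival factor of B cells made largely by myeloid cells. It had 2.37, 3.37 and 7.40 CPM after pontine infarction and 0.258, 0.416 and 0.575 CPM in the PN shams. All 3 stroke libraries were above the shams, and the difference of 10.4-fold passed (log2 3.37 ± 0.72, edgeR adjusted p = 0.0263). After MCAO it had 0.241, 2.22 and 0.677 CPM against 0.422, 0.445 and 0.497 CPM in the LN shams. Here replicate 1 was below the shams and replicate 2 above, and the difference did not pass (log2 1.20 ± 0.70, adjusted p = 0.241).

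Tnfsf13 encodes APRIL, the relative of BAFF that supports plasma cells. It had 19.3, 11.2 and 36.8 CPM after pontine infarction and 8.04, 6.91 and 4.96 CPM in the PN shams. It rose 3.37-fold (log2 1.75 ± 0.39, edgeR adjusted p = 0.0319). After MCAO it had 26.5, 16.9 and 27.04 CPM against 20.02, 23.3 and 14.3 CPM in the LN shams, which overlapped (adjusted p = 0.612). Tnfsf13 lies next to Tnfsf12 and RefSeq places Eif4a1l over both, so their reads cannot be told apart where they overlap.

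Pontine infarction replicate 3 was the highest of its group for Tnfsf13b, Tnfsf13 and Tnfrsf1a, and also for the activated phagocyte sum, 4013 CPM. For Tnfrsf1a, 71.8 CPM in replicate 3 stood close to 69.9 in replicate 1. Replicate 3 was the highest for the 8 resident microglia genes as well, which summed to 345, 607 and 1152 CPM in pontine infarction replicates 1 to 3 against 338 to 376 CPM in the PN shams. It was also the highest for the lymphocyte (33.4 CPM), astrocyte (11198), endothelial (344), mural and fibroblast (451) and telencephalon (106) sums. The neutrophil and monocyte, oligodendrocyte, oligodendrocyte precursor and hindbrain sums were highest in replicate 1, and the neuron sum in replicate 2. After MCAO the microglia sum was 278 to 392 CPM, against 334 to 394 CPM in the LN shams. Of the 7 tested, Siglech passed as higher (53 counts against 0) and Tmem119 as lower after MCAO, and Csf1r as higher after pontine infarction; these are named after their values were seen. The part of these cells in the results was not tested. Without replicate 3 the log2 difference was 2.77 for Tnfsf13b (edgeR adjusted p = 0.0859) and 1.19 for Tnfsf13 (0.0918). Neither passed without any 1 of the PN shams either.

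The receptors of BAFF and APRIL were sparse. Tnfrsf13b, which encodes TACI, averaged 0.212 ± 0.125 CPM (SD, n = 3) after MCAO, 0.276 ± 0.127 in the LN shams, 0.413 ± 0.295 after pontine infarction and 0.175 ± 0.133 in the PN shams, and did not pass. Tnfrsf13c, the BAFF receptor gene, gave 6 counts in the MCAO group, 1 in the LN shams, 40 in pontine infarction and 15 in the PN shams. Tnfrsf17, which encodes BCMA on plasma cells, had 1, 3, 11 and 16 counts in the same order. Neither was tested.

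**Figure D3:**
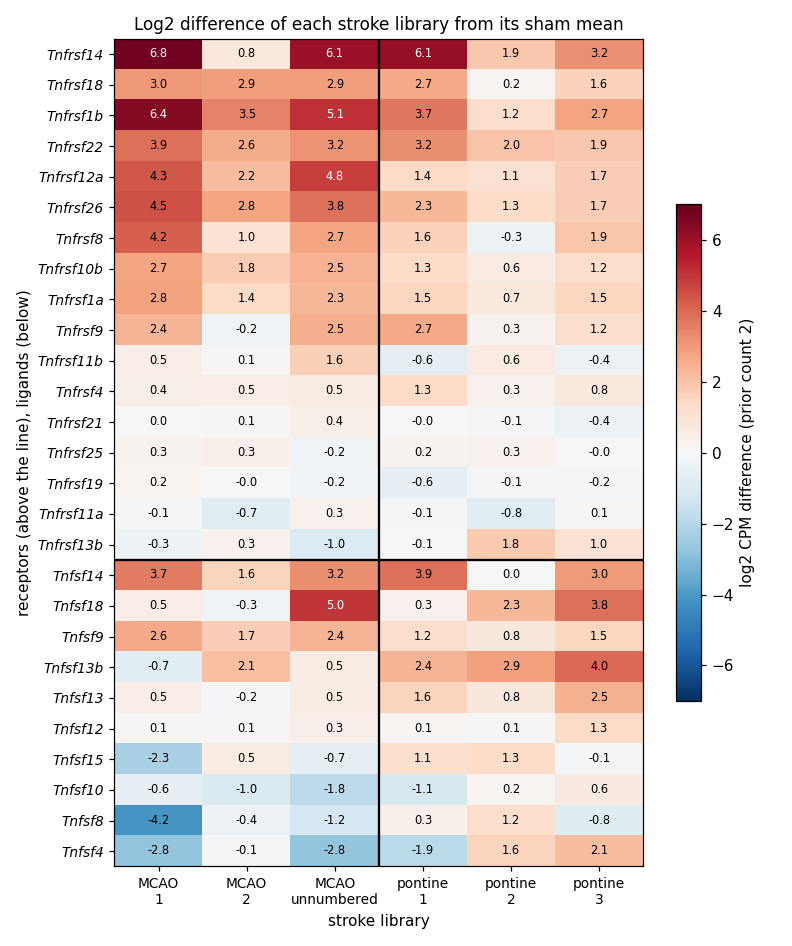
Colour and printed value give the log2 CPM difference (prior count 2) of each stroke library from the mean of its own shams, for every tested member in rows and the 6 stroke libraries in columns. MCAO replicate 2 and pontine infarction replicate 2 are the palest columns of their groups for Tnfrsf1b and Tnfrsf14.

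The response to MCAO and the response to pontine infarction were compared by an interaction term in the same fit. No member passed, and 0.00% of all genes did. At an unadjusted p under 0.05 there were 8 members: Tnfrsf1a, Tnfrsf1b, Tnfrsf10b, Tnfrsf12a, Tnfrsf26 and Tnfsf9 with the larger fitted rise after MCAO, and Tnfsf13 and Tnfsf13b with the larger one after pontine infarction. The share of all genes under that unadjusted threshold is not given here, so the count of 8 is no result about the members. DESeq2 called 1, Tnfrsf12a (adjusted p = 0.0224), and limma voom called 0. The site difference for Tnfrsf12a was log2 2.77 ± 0.71 (edgeR adjusted p = 0.269), for Tnfrsf1b 2.56 ± 0.94 (0.385) and for Tnfrsf1a 0.98 ± 0.43 (0.448). For Tnfsf13 it was -1.46 ± 0.54 (0.382) and for Tnfsf13b -2.18 ± 0.98 (0.458). Without MCAO replicate 2 the count was 2: Tnfrsf12a passed at 0.00403 with log2 3.04, and Tnfsf13b at 0.0362 with log2 -3.55. With all libraries and edgeR or limma voom, a member that passed after 1 stroke alone was not shown to differ between the strokes.

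The LN and PN shams differed in 6 of the 27 members, 22.2%, against 21.3% of all genes called, a share near the background. The median log2 difference, LN minus PN, was -0.054 over the members and -0.11 over all genes. These are the same sham libraries as in the stroke comparisons above. The 3 that were higher in LN were Tnfsf13, Tnfrsf19 and Tnfsf8, and the 3 that were lower were Tnfrsf21, Tnfsf9 and Tnfrsf11a. Tnfrsf12a was lower in LN without overlap but missed the threshold (log2 -1.44 ± 0.52, edgeR adjusted p = 0.0693). In a fit of the sham libraries alone it passed (0.00236), where 6365 of all genes were called against 3625. DESeq2 called Tnfrsf12a (adjusted p = 0.0271), Tnfrsf10b (0.0422) and Tnfrsf8 (0.0465) lower and Tnfsf15 (0.0277) higher in LN.

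Tnfrsf21 encodes death receptor 6, known from neurons and oligodendrocyte lineage cells. It had 88.6, 102 and 79.9 CPM in the LN shams and 148, 178 and 173 CPM in the PN shams. LN was 1.84-fold lower (log2 -0.88 ± 0.15, edgeR adjusted p = 0.00195), and of the 6 only this member passed whichever sham library was left out. After stroke it did not pass at either site, with 89.9, 95.3 and 119 CPM after MCAO and 161, 150 and 126 CPM after pontine infarction.

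Tnfrsf11a encodes RANK, the receptor of the bone and immune cytokine RANKL. It had 21.9, 15.9 and 23.9 CPM in the LN shams and 37.5, 30.3 and 58.5 CPM in the PN shams (log2 -1.03 ± 0.33, edgeR adjusted p = 0.0441). It did not pass with DESeq2 size factors (0.0543) or without the low-count filter (0.0641). Its MCAO libraries had 19.1, 12.1 and 25.0 CPM and its pontine infarction libraries 38.8, 22.9 and 42.9 CPM, each overlapping their shams. Tnfrsf11b, which encodes the decoy osteoprotegerin, averaged 28.7 ± 17.5 CPM (SD, n = 3) after MCAO, 15.6 ± 2.23 in the LN shams, 10.7 ± 4.95 after pontine infarction and 11.4 ± 4.14 in the PN shams, and passed nowhere. RANKL itself, Tnfsf11, is listed at 0 in all libraries.

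Tnfrsf19 encodes TROY, a receptor of neural progenitors and glia. It had 21.4, 23.0 and 21.8 CPM in the LN shams and 14.7, 16.2 and 14.0 CPM in the PN shams (log2 0.56 ± 0.17, edgeR adjusted p = 0.0326), a difference that did not pass once any sham library was left out. After MCAO it had 24.7, 21.7 and 19.1 CPM, and after pontine infarction 10.001, 14.0 and 13.5 CPM, the latter all below the PN shams (adjusted p = 0.381).

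Of the ligands, Tnfsf13 was 2.90-fold higher in the LN than in the PN shams (log2 1.53 ± 0.39, edgeR adjusted p = 0.0154) and Tnfsf9 was 2.93-fold lower (log2 -1.55 ± 0.39, adjusted p = 0.0155), with the library values given above. Tnfsf8 encodes the CD30 ligand. It had 2.11, 2.33 and 1.91 CPM in the LN shams and 0.344, 0 and 0 CPM in the PN shams (log2 4.24 ± 1.29, adjusted p = 0.0366). The log2 difference was 3.65 without PN sham 2 and 3.63 without PN sham 3, neither past the threshold. Without PN sham 1, the only PN library with counts, Tnfsf8 still passed. After MCAO it had 0.0481, 1.58 and 0.871 CPM, all below the LN shams without passing (log2 -1.34 ± 1.07, adjusted p = 0.392), and after pontine infarction 0.0930, 0.234 and 0 CPM. Leaving out 1 sham library ended the call of Tnfsf13 for LN sham 2 and PN shams 2 and 3, that of Tnfsf9 for LN sham 3 and PN sham 1, and that of Tnfsf8 and Tnfrsf11a for 5 of the 6, all but PN sham 1 and PN sham 2 respectively.

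Beside these differences, the 8 oligodendrocyte genes summed to 14432 to 20817 CPM in the LN shams and 40826 to 50907 CPM in the PN shams. The 12 lymphocyte genes summed to 18.4 to 25.4 and 11.3 to 14.2 CPM. The part of tissue makeup in the member differences was not tested.

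**Figure D4:**
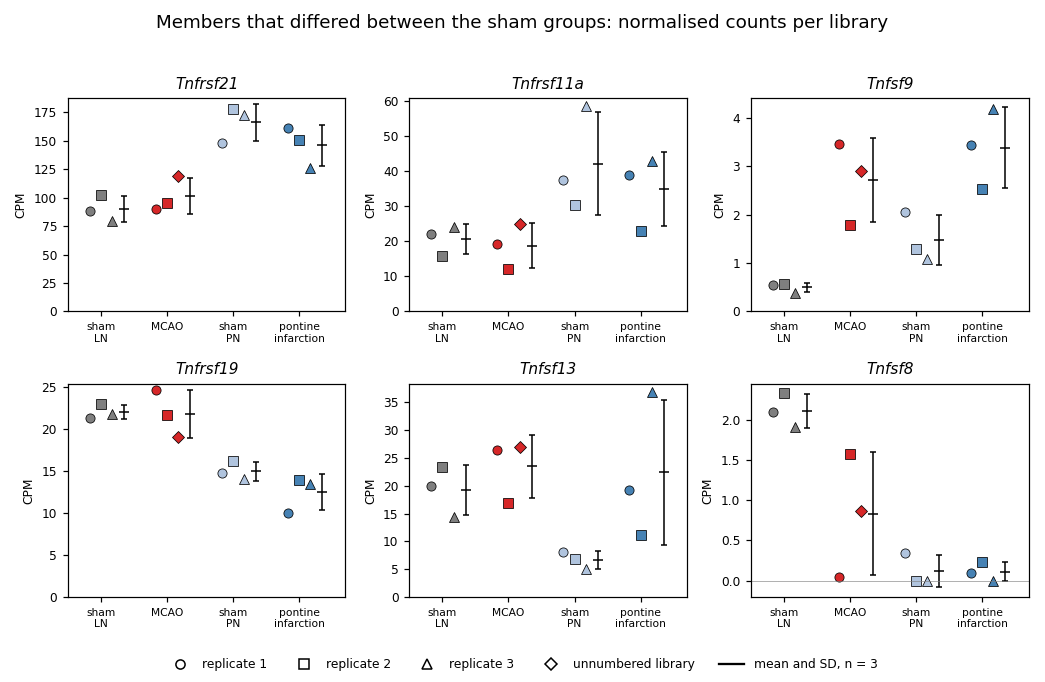
CPM of the 6 members that differed between the sham groups is plotted for each of the 12 libraries on a linear axis of its own, with group mean and SD (n = 3) as black bars. Tnfrsf21 is at 79.9 to 102 CPM in the LN shams and 148 to 178 CPM in the PN shams, with 89.9 to 119 CPM after MCAO and 126 to 161 CPM after pontine infarction.

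The last pair of members, Tnfrsf25, which encodes death receptor 3, and its ligand gene Tnfsf15, passed in no comparison. Tnfrsf25 averaged 2.66 ± 0.551 CPM (SD, n = 3) after MCAO, 2.42 ± 0.298 in the LN shams, 1.70 ± 0.185 after pontine infarction and 1.55 ± 0.503 in the PN shams. Tnfsf15 averaged 0.539 ± 0.503, 0.788 ± 0.363, 0.302 ± 0.166 and 0.140 ± 0.0707 CPM in the same order. Between the shams, Tnfsf15 missed the threshold (log2 2.44 ± 0.82, edgeR adjusted p = 0.0554), and passed in a fit of the sham libraries alone (0.00679).

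The family also holds 15 genes with other symbols, of which 8 were tested. After MCAO 4 of the 8 rose: Fas (log2 3.33 ± 0.66, edgeR adjusted p = 0.00757), the death receptor of Fas ligand, Cd40 (2.99 ± 0.56, 0.00635), a receptor of antigen-presenting cells, the lymphotoxin receptor Ltbr (1.34 ± 0.27, 0.00849) and Relt (0.82 ± 0.23, 0.0298). Of the 6 fits leaving out a library of these groups, Relt passed only in that without MCAO replicate 2, and without MCAO replicate 1 the log2 difference of Fas was 2.58. After pontine infarction 1 of the 8 rose, Cd40 (2.54 ± 0.55, 0.027), which did not pass without pontine infarction replicate 1 or 3 or without any 1 of the PN shams. Lta, Ltb and Cd27 had 12, 24 and 31 counts in all and were not tested. Cd40lg, Eda and Eda2r are listed at 0, but they are X-linked, and 97.5% of the 606 X-linked protein-coding symbols are at 0 in every library against 6.57% of 16016 autosomal ones, so these zeros say nothing of the genes.

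Of 31 adaptor and signalling genes downstream of the receptors, 29 were tested. After MCAO 12 rose and 1 fell, Cyld (log2 -1.0003 ± 0.30, edgeR adjusted p = 0.0397), which encodes a deubiquitinase of the pathway and is named after its value was seen. Of the 6 fits leaving out a library of these groups, it passed only in that without MCAO replicate 2. The 4 with the largest changes were Birc3 (log2 6.19 ± 1.18, edgeR adjusted p = 0.00656), an inhibitor of apoptosis and ubiquitin ligase at TNF receptors, the NF-kB subunit gene Nfkb2 (3.71 ± 0.67, 0.00535), Tnfaip3 (3.35 ± 0.84, 0.0201), which encodes the NF-kB inhibitor A20, and the adaptor Traf1 (3.25 ± 0.56, 0.00443). The number that passed ranged from 6 to 21 as single libraries were left out: 6 without MCAO replicate 1 or without LN sham 3, and 21 without MCAO replicate 2. Without MCAO replicate 1 the log2 difference was 5.25 for Birc3 and 2.88 for Nfkb2, both past the threshold, and 2.35 for Tnfaip3, which passed neither then nor without any 1 of the LN shams. After pontine infarction 1 of the 29 rose, Casp8 (2.04 ± 0.31, 0.00858), the caspase recruited by death-domain receptors, which did not pass without PN sham 3. Both lists were chosen with earlier results of these data known and their counts are read only against the backgrounds given above.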

How the data were processed

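Bulk RNA-seq was deposited for 12 rat brain libraries in 4 groups of 3. The unit is whole-number read counts per gene symbol in the authors' deposited table; per the submitters' processing notes, reads were aligned with HISAT2 to Rnor_6.0, while no source used here gives the counting program, the strand setting or the library kit. Per the labels' protocols, RNA was extracted with Trizol. Columns were matched to samples by their codes. The codes of 11 columns match a title, and the remaining column was used as an MCAO library without a number. Library totals were 19805815 to 40400676 counts, and no libraries of a group were duplicates.

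The counts were tested with edgeR 4.0.16 under R 4.3.3: TMM scaling, filterByExpr (minimum count 10, minimum total 15; 17008 genes kept), and the quasi-likelihood test on 4 group means over all 12 libraries, two-sided, with Benjamini-Hochberg adjustment over all genes tested. Common biological variation was 0.302. CPM values use TMM-scaled totals and are not corrected for length. The scripts were tested on simulated data. DESeq2 1.42.0, limma 3.58.1 (voom), other filters and scaling, fits of the compared groups, a replicate block and leaving out each library were tried.

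Members with an adjusted p under 0.05 in any comparison were given in every library, other tested members by group means, and other listed genes by counts and up to the 4 largest changes. The members and lists were chosen with earlier results of these data known. Promoters come from RefSeq (GRCr8).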

Additional observations from a re-analysis of the deposited data

How the results depend on the processing

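Of 1477 values of single members under the alternatives, 1299 kept their sign and their side of the threshold, 80 missed a threshold they had passed, 28 newly passed and 70, of 26 member differences, took the other sign. The 80 could come only from calls made with all libraries, 10 after MCAO, 5 after pontine infarction, 0 for the difference of responses and 6 between the shams. They are thus a larger part of the values that could be lost than of the 1477. None of the 70 with the other sign was past the threshold with all libraries or under the alternative. Such log2 differences with the replicate block were Tnfrsf13b 0.36, Tnfrsf19 0.061, Tnfrsf21 -0.041, Tnfsf12 -0.031, Tnfsf13 -0.026 and Tnfsf18 -0.11 after MCAO, Tnfsf10 -0.042 after pontine infarction and Tnfrsf11a -0.026, Tnfrsf25 0.18, Tnfrsf9 -0.56 and Tnfsf18 -4.07 for the difference of responses. Such log2 differences in the fit of the compared groups were Tnfrsf11b 0.0010 after pontine infarction and Tnfrsf1b 0.026 between the shams. Such log2 differences with limma voom were Tnfsf10 -0.0091 after pontine infarction and Tnfsf18 -0.63 for the difference of responses. Such log2 differences without a low-count filter were Tnfrsf11a -0.057 and Tnfrsf9 -0.077 for the difference of responses and Tnfrsf1b 0.055 between the shams. With single libraries left out, the range after MCAO was -0.40 to 0.0087 for Tnfrsf11a, -0.98 to 0.058 for Tnfrsf13b, -0.20 to 0.069 for Tnfrsf19, -0.071 to 0.30 for Tnfrsf25 and -0.073 to 1.58 for Tnfsf13b. With single libraries left out, the range after pontine infarction was -0.46 to 0.039 for Tnfrsf11a, -0.54 to 0.22 for Tnfrsf11b, -0.093 to 0.37 for Tnfrsf25, -0.35 to 0.37 for Tnfsf10 and -1.25 to 4.75 for Tnfsf8. With single libraries left out, the range for the difference of responses was -0.18 to 0.33 for Tnfrsf11a, -0.032 to 0.33 for Tnfrsf19, -0.30 to 0.23 for Tnfrsf25, -0.86 to 0.030 for Tnfrsf4, -0.31 to 1.05 for Tnfrsf9, -0.69 to 0.048 for Tnfsf12, -0.49 to 1.15 for Tnfsf14 and -4.15 to 3.29 for Tnfsf18. With single libraries left out, the range between the shams was -0.81 to 0.55 for Tnfrsf14, -0.16 to 0.098 for Tnfrsf1b, -0.13 to 0.42 for Tnfsf13b and -2.67 to 0.18 for Tnfsf18. Values of Tnfsf14, Tnfsf18 and other members with a group near 0 counts are fitted and no bounds. With single libraries left out, the members called ranged from 7 to 14 after MCAO (10 with all libraries), from 0 to 8 after pontine infarction (5), from 0 to 2 for the difference of responses (0) and from 2 to 3 between the shams (6). Calls over all genes then ranged from 1136 to 6170 after MCAO and from 6 to 965 after pontine infarction. For the difference of responses they ranged from 0 to 970, and between the shams from 2334 to 2662. DESeq2 called 9 after pontine infarction, 1 for the difference of responses and 10 between the shams, and limma voom called 1 after pontine infarction; the cause was not tested. Over all genes, 3163 calls after MCAO became 1354 in a fit of the compared groups, 694 after pontine infarction became 1738 with DESeq2 and 315 with limma voom, 0 for the difference of responses became 238 with DESeq2, and 3625 between the shams became 6365 in a fit of the compared groups. Of the adaptor and signalling genes, 8 in place of 13 were called after MCAO in the fit of the compared groups, and after pontine infarction 7 with DESeq2, 3 without a low-count filter and 2 in the fit of the compared groups in place of 1. DESeq2 called 2 and limma voom 0 of the family genes with other symbols after pontine infarction in place of 1. With 3 libraries a group, fewer samples limit these fits, and members with few counts are limited by depth. Whether the replicate numbers pair the samples cannot be told from these values, and the main fit does not pair them. Same-numbered libraries correlated at 0.043 to 0.10 after MCAO, 0.048 to 0.15 after pontine infarction and 0.043 to 0.15 between the shams. In each of the latter comparisons 6 of 6 libraries correlated best with their own number, which is a hint from the data only. With a replicate block, 1 member (Tnfrsf26) was called after MCAO, 0 after pontine infarction and 3 between the shams, and 130, 105 and 2700 of all genes. No gene of the adaptor or other-symbol lists was then called after either stroke. In the blocked stroke fit the unnumbered MCAO library and LN sham 3 each formed a block alone. They therefore did not inform the MCAO difference, and fewer libraries stood behind it.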
